A study of Mus musculus with 4 samples.

Results

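Solute carrier promoters were examined in mouse fibroblasts that lack Kindlin-2 or Rela. The members were all regions of open chromatin that the deposited tables assign to a gene whose symbol begins with Slc and a digit, and whose centre lies within 2500 bp of a transcription start of that gene. For the Kindlin-2 pair, 36 regions at 36 Slc genes met this rule, of 2409 promoter regions at 2361 genes. For the Rela pair, 114 regions at 112 Slc genes met it, of 6833 promoter regions at 6586 genes. Together these are 115 Slc genes, of which 33 had a promoter region in both tables, 3 only in the Kindlin-2 table and 79 only in the Rela table. Slc9a3r1, an adaptor protein named after a sodium/proton exchanger, is kept because the symbol fits, although it is no carrier.

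Accessibility was measured by ATAC-seq: the Tn5 transposase inserts sequencing adapters into accessible DNA. The groups were Kindlin-2 knockout kidney fibroblasts beside Kindlin-2 floxed kidney fibroblasts, and Rela knockout 3T3 cells beside Rela wild-type 3T3 cells, 3T3 being a fibroblast line from mouse embryo. All 4 genotypes were grown in the same serum-containing medium and used at passages 15 to 20, with 50000 cells per library. Kindlin-2 is an integrin-binding adaptor of focal adhesions, and Rela is the p65 subunit of NF-kB. How the knockouts were made, and whether a genotype is 1 clone, is not stated in the labels. The design text gives 2 biological replicates per genotype, but each table has 1 column of normalized signal per genotype, so replicates cannot be compared and no difference carries a p-value.

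Solute carriers are membrane proteins that move nutrients, ions, metabolites and metals across the plasma membrane and the membranes of organelles, either down a gradient or coupled to the movement of an ion. Families within the group share sequence and often a substrate type: Slc25 proteins serve the inner mitochondrial membrane, Slc35 proteins bring nucleotide sugars into the Golgi apparatus and the endoplasmic reticulum, and Slc7, Slc38 and Slc1 proteins carry amino acids. Accessible promoters are usual at genes that a cell can transcribe, but accessibility is not a measure of transcript or of transport.

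The starts of 6 members to which the results return are shown by the 250 bases before the transcription start, from RefSeq for the mouse assembly GRCm38.p6, the patch release of the build the tables use. They were chosen after the values were seen, as members past 2-fold whose region overlaps the window: Slc44a3 higher and Slc25a42 lower in the Kindlin-2 comparison, Slc2a13 and Slc7a11 higher and Slc35e3 and Slc35f6 lower in the Rela comparison. Capitals mark exact matches, on either strand, to the TEAD motif GGAATG, the GC box GGGCGG, the CCAAT box, the E-box CACGTG and the amino acid response element core TGATGCAA. Matches to 6 other motifs searched, named further on, would be marked too, but these windows hold none. The amino acid response element was added after the Slc7a11 sequence was seen. The windows lie at chr3:121532345-121532594 (Slc44a3, minus strand), chr8:70212282-70212531 (Slc25a42, minus), chr15:91573262-91573511 (Slc2a13, minus), chr3:50443614-50443863 (Slc7a11, minus), chr10:117746359-117746608 (Slc35e3, minus) and chr5:30647689-30647938 (Slc35f6, plus).
Slc44a3: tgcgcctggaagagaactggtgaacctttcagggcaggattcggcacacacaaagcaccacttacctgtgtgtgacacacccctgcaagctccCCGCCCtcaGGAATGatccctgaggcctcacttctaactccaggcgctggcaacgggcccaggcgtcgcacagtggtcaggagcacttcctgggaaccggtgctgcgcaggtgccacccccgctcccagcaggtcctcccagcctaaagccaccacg
Slc25a42: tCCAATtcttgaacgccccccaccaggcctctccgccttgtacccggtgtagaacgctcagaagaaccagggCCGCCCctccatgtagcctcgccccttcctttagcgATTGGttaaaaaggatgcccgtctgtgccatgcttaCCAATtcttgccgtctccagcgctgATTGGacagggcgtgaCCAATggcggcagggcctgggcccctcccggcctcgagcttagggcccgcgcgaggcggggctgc
Slc2a13: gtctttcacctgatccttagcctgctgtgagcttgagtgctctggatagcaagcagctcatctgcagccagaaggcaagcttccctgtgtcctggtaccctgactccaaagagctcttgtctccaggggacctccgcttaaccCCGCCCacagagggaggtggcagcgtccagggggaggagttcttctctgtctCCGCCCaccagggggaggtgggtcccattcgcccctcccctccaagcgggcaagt
Slc7a11: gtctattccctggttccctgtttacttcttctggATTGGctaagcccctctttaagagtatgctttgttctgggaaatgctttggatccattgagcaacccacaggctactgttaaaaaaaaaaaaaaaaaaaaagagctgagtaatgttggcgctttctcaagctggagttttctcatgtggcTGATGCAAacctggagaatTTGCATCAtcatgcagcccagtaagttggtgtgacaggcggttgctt
Slc35e3: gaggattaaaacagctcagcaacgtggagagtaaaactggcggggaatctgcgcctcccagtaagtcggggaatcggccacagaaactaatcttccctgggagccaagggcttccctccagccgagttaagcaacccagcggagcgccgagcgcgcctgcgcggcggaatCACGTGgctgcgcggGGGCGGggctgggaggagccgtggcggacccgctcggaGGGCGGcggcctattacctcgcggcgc
Slc35f6: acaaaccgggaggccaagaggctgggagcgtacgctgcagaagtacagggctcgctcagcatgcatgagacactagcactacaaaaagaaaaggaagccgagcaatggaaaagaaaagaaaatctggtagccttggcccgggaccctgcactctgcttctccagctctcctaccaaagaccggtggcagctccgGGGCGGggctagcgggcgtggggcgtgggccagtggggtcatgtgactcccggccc

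The Slc25a42 window holds CCAAT boxes in both orientations, and the Slc7a11 window holds the amino acid response element core once in each orientation, close to its start. No other overlapped Slc window held that core, which is in 0.791% of all 32851 RefSeq windows. The GC box was in 75% of the 68 overlapped Slc windows of the Rela comparison, against 68.0% of the 4438 overlapped windows of all genes and 32.7% of all windows. The CCAAT box was in 48.5% of those Slc windows, against 44.1% of overlapped and 33.9% of all windows. The E-box was in 14.7%, against 8.43% and 6.02%. The antioxidant response element core TGACNNNGC was in 23.5%, against 13.8% and 10.2%, and the ETS core CCGGAAG in 16.2%, against 15.9% and 6.91%. The TEAD motif was in 8.82%, against 9.62% and 12.6%, and the AP-1 motif TGANTCA in 4.41%, against 4.53% and 6.75%. The CRE TGACGTCA was in 2.94%, against 3.29% and 1.55%, and the NRF1 motif GCGCATGCG in 1.47%, against 3.40% and 1.45%. For NF-kB the motif GGANTTTCC was in 1.47% of the overlapped Slc windows, which is 1 gene, Slc37a4, against 1.15% and 1.07%. In the Kindlin-2 comparison the GC box was in 84.6% of the 26 overlapped Slc windows, against 71.6% of the 1571 overlapped windows of all genes. The antioxidant response element core was in 19.2% (5 windows), against 14.7%. The E-box was in 11.5%, against 8.08%, the ETS core in 23.1%, against 17.4%, and the CRE in 3.85%, against 3.25%. Rarer than in all genes were the CCAAT box (46.2%, against 49.7%), the TEAD motif (3.85%, against 10.4%) and the AP-1 motif (3.85%, against 4.65%). In 0% were the NRF1 motif (against 4.14%), the NF-kB motif (against 0.83%) and the amino acid response element core (against 0.25%). The median ratio of observed to expected CpG was 0.79 in the Slc windows overlapped in the Kindlin-2 table and 0.797 in those of all genes. In the Rela table it was 0.699 in Slc windows and 0.768 in those of all genes, against 0.373 over all windows. Overlapped Slc windows were thus richer in CpG and GC boxes than the average window, as were the overlapped windows of all genes. A match describes letters in a window and is not a site of binding.

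The share of Slc genes with an open promoter was close to that of all genes in both tables. Of 375 protein-coding Slc genes in RefSeq, 36 (9.6%) had a promoter region in the Kindlin-2 table, against 10.3% of all 21896 coding genes, and 112 (29.9%) had one in the Rela table, against 28.5%. Coverage varied with substrate. In the Rela pair, 28 of 47 mitochondrial carriers (family Slc25, 59.6%) and 12 of 27 Slc35 genes (44.4%) had a promoter region. By contrast 4 of 42 carriers of organic ions and bile acids (9.52%) had one, and 0 of 16 neurotransmitter carriers. Family Slc22 of organic cation and anion carriers had 1 of 25 genes in that table, family Slc5 of sodium-coupled glucose carriers had 0 of 13, and both Slc20 phosphate carriers were there. In neither table did any of 9 carriers that define the kidney tubule have a region. Among 10 fibroblast markers 7 had a region in the Rela table, Col1a2, Pdgfra and Thy1 among them, but 0 had one in the Kindlin-2 table, so in that sparse table these markers do not bear on the fibroblast label. Of 6 epithelial markers 2 had a region in the Rela table, summing to 26 in Rela knockout and 10 in wild-type cells, and 0 had one in the Kindlin-2 table. Of 3 leukocyte markers Ptprc was the only 1 present in the Kindlin-2 table, with 27 in Kindlin-2 knockout and 10 in floxed cells, and Cd68 and Ptprc had regions in the Rela table, summing to 45 in Rela knockout and 70 in wild-type cells. None of 3 endothelial markers had a region in either table. The part of other cells in the Slc values was not tested.

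Depth limits what each pair can show. Most of the signal in the Kindlin-2 table was mitochondrial, 713191 of 827408 in Kindlin-2 knockout and 1520321 of 1655317 in floxed cells, whereas the Rela table had 0 mitochondrial signal in both genotypes. Nuclear signal summed to 114217 in Kindlin-2 knockout and 134996 in floxed cells, and to 1458609 in Rela knockout and 1386832 in Rela wild-type cells. The median Slc gene had a promoter signal of 17 in Kindlin-2 knockout cells and 17 in floxed cells, and of 56 in Rela knockout cells and 55 in wild-type cells. Below, a gene's log2 ratio is log2 of (knockout + 1) over (control + 1), averaged over its promoter regions, and a gene is called higher or lower when that mean reaches 2-fold. Intervals are exact 95% intervals of the ratio of the signals without the added 1. They cover counting error only, and rest on counts inferred from the pattern of whole values in each column, which for Kindlin-2 knockout cells gave no clear scale.

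In Kindlin-2 knockout kidney fibroblasts 3 of 36 Slc genes were at least 2-fold higher than in floxed cells and 2 were at least 2-fold lower. These are 8.33% and 5.56% of the Slc genes, against 8.3% and 10.9% of all genes with a promoter region. The median log2 ratio was -0.16 over Slc genes and -0.17 over all genes, with 12 Slc genes above 0, 22 below and 2 at 0. The Slc genes thus stood where the table as a whole stood. The counting interval lay wholly above 1 for 2 Slc regions and wholly below 1 for 5, against 3.78% and 13.1% of all promoter regions.

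The 3 higher genes were Slc44a3, Slc35a1 and Slc9a3r1. All had a mean signal below the median region of the table, 16, and rest on few counts; Slc44a3 and Slc9a3r1 fall outside the rule by which genes were named. Slc44a3, of the choline transporter-like family, had a signal of 19 in Kindlin-2 knockout and 1 in floxed cells, a 19-fold ratio with an interval of 2.44 to 2484.5. Slc35a1, which brings CMP-sialic acid into the Golgi apparatus, had 9 in knockout and 1 in floxed cells, with an interval of 1.01 to 1234. Slc9a3r1 had 18 in knockout and 8 in floxed cells, 2.25-fold, with an interval of 0.85 to 7.01 that includes 1. The Slc44a3 ratio is the only one of the 36 whose interval lay wholly beyond 2-fold. The floxed value of 1 for Slc44a3 and Slc35a1 is below a floor of 3 counts per library. That floor is a signal of 4.08 in floxed cells, so the size of both ratios is uncertain. Both genes lie in the quartile of weakest signal, where 129 of 501 genes were higher, against 2 of 9 Slc genes.

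The 2 lower genes were Slc25a42 and Slc25a4, and only the Slc25a42 interval excludes 1. Both are mitochondrial carriers, 2 of the 9 with a promoter region (22.2%, against 10.9% of all genes lower). Slc25a42, which carries coenzyme A into the matrix and whose window with its CCAAT boxes is shown above, had a signal of 41 in Kindlin-2 knockout and 87 in floxed cells, 2.12-fold lower, with an interval of 1.41 to 3.22. Slc25a4, an ADP/ATP carrier of muscle and heart, had 7 in knockout and 16 in floxed cells, 2.29-fold lower, with an interval of 0.825 to 6.88. Just short of the threshold stood Slc25a3, the mitochondrial phosphate carrier, with 28 in knockout and 56 in floxed cells and an interval of 1.21 to 3.36 for the lower fold. Over the 9 mitochondrial carriers with a promoter region the median log2 ratio was -0.13, with 6 below 0 and 2 above, of which Slc25a35 had 13 in knockout and 7 in floxed cells. Slc25a42 and Slc25a4 are both on chromosome 8, where the median log2 ratio over all regions was -0.28. Relative to that median they stood at -0.79 and -0.81, inside 2-fold.

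The strongest Slc promoter in floxed cells belonged to Slc1a4, a carrier of neutral amino acids such as serine and alanine. It had a signal of 51 in Kindlin-2 knockout and 98 in floxed cells, 1.92-fold lower, with an interval of 1.32 to 2.81. Per kilobase of region Slc35e1, an orphan member of the nucleotide sugar family, was the most open in floxed cells, with 86.3 per kb in knockout and 166 per kb in floxed cells. Slc25a42 had 77.5 per kb in knockout and 164 per kb in floxed cells. The genes closest to 2-fold on the higher side had weaker promoters. They were Slc12a2, the sodium-potassium-chloride cotransporter, with 16 in knockout and 8 in floxed cells, and Slc3a2, the heavy chain of amino acid exchangers, with 14 in knockout and 7 in floxed cells. The Slc3a2 region also covers the start of Snhg1.

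This order by strength ran through the whole table. Over all genes the median log2 ratio was 0.42 in the quartile of regions with the weakest signal and -0.43 in the strongest quartile. Over Slc genes it was 0.22 in the weakest and -0.44 in the strongest quartile. What part this trend has in the single-gene values was not tested.

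**Figure D1:**
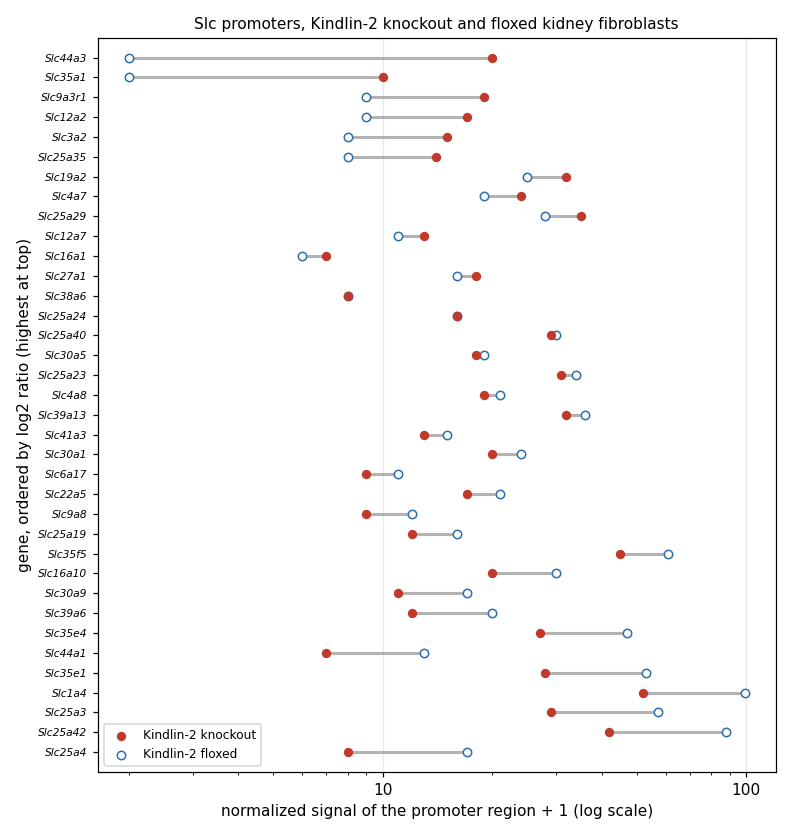
Normalized signal plus 1 (log axis) of the promoter region of each of the 36 Slc genes in Kindlin-2 knockout (filled) and floxed (open) kidney fibroblasts, 1 value per genotype. Slc44a3 at the top has 19 in knockout and 1 in floxed cells, and the strongest promoters in floxed cells stand near the bottom, where the knockout value is lower.

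By substrate, the 6 metal carriers with a promoter region in the Kindlin-2 table all had a log2 ratio below 0, from -0.74 to -0.08 with a median of -0.23, which is close to the median of all genes. The lowest of them was Slc39a6, a zinc importer, with a signal of 11 in Kindlin-2 knockout and 19 in floxed cells. Among 4 Slc35 genes the median was -0.62, with Slc35e4 at 26 in knockout and 46 in floxed cells and Slc35a1 alone above 0. Among 4 amino acid carriers the median was -0.14. These groups are small, and apart from the genes named above none of their members reached 2-fold. With each chromosome's median set to 0, however, Slc39a6 stood at -1.08 and the choline carrier gene Slc44a1 at -1.06, the Slc44a1 region having 6 in knockout and 12 in floxed cells. Under that scaling these were the 2 lower genes, in place of Slc25a42 and Slc25a4.

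In Rela knockout 3T3 cells 16 of 112 Slc genes stood at least 2-fold above, and 13 at least 2-fold below, their value in wild-type cells. These are 14.3% and 11.6% of the Slc genes, against 11.1% and 11.2% of all genes with a promoter region. The median log2 ratio was 0.11 over Slc genes and -0.02 over all genes, with 61 Slc genes above 0, 49 below and 2 at 0. Both shares are near those of the table. Counting intervals lay wholly above 1 for 33 Slc regions and wholly below 1 for 29, against 25.7% and 25.9% of all promoter regions. The interval excluded 1 for 15 of the 16 higher and 10 of the 13 lower genes, the exceptions being Slc16a10 among the higher and Slc16a7, Slc25a5 and Slc6a15 among the lower.

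The largest group among the higher genes was the amino acid carriers. Of 17 with a promoter region 6 were higher (35.3%, against 11.1% of all genes) and 1 was lower (5.88%, against 11.2%), with a median log2 ratio of 0.33. The class follows families, so it includes the creatine carrier gene Slc6a8 and leaves out Slc16a10, which is counted with the monocarboxylate family. Slc38a1, a sodium-coupled glutamine carrier of the plasma membrane, had a signal of 306 in Rela knockout and 36 in wild-type cells, 8.5-fold, with an interval of 6.34 to 11.6. Its region is the widest of the set at 4775 bp and its centre lies 2464 bp from the start, just inside the limit of 2500 bp. Per kilobase the Slc38a1 region had 64.1 in knockout and 7.54 in wild-type cells, the lowest wild-type density among the Slc regions.

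Slc43a3 had a signal of 53 in Rela knockout and 8 in wild-type cells, 6.63-fold, with an interval of 3.49 to 13.7. It is counted here with its family, though the protein is known as a carrier of purine nucleobases, and its mean signal is below the median region of the table, 35. Slc7a11, the cystine/glutamate exchanger that feeds glutathione synthesis, had 44 in knockout and 19 in wild-type cells, 2.32-fold, with an interval of 1.42 to 3.85. Its region covers the window with the paired TGATGCAA cores shown above. Slc6a17, a vesicular carrier of neutral amino acids, had 44 in knockout and 17 in wild-type cells, 2.59-fold.

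Slc38a7, a lysosomal glutamine carrier, had 185 in Rela knockout and 90 in wild-type cells, 2.06-fold, with an interval of 1.64 to 2.58. Slc7a5, the light chain of the large neutral amino acid exchanger, had 22 in knockout and 10 in wild-type cells, with an interval of 1.10 to 4.56. Its partner Slc3a2 had 121 in knockout and 96 in wild-type cells, within 2-fold. Other amino acid carriers stood on the opposite side of even: Slc38a2, a glutamine carrier, had 84 in knockout and 128 in wild-type cells, and the arginine carrier Slc7a1 had 130 in knockout and 158 in wild-type cells. The lower gene, Slc6a15, had 2 in knockout and 5 in wild-type cells, too few to separate.

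These 6 genes do not all stand apart from their chromosomes. Slc38a7 and Slc7a5 are on chromosome 8, where the median log2 ratio over 1972 regions was 0.61, and Slc7a11 and Slc6a17 are on chromosome 3, with a median of 0.53 over 1793 regions. Relative to these medians the log2 ratios were 0.42 for Slc38a7, 0.45 for Slc7a5, 0.64 for Slc7a11 and 0.79 for Slc6a17, all inside 2-fold. Slc38a1 and Slc43a3 stayed past 2-fold, at 3.02 and 2.75, and the median over the 17 amino acid carriers became 0.09. Whether the chromosome medians reflect copy number was not tested.

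Among the other higher genes, Slc16a13, an orphan of the monocarboxylate family, had a signal of 30 in Rela knockout and 3 in wild-type cells, 10-fold, with an interval of 3.68 to 36.1 and a mean below the median region. Slc27a1, a fatty acid transport protein, had 107 in knockout and 32 in wild-type cells, 3.34-fold, with an interval of 2.36 to 4.81. Slc25a24, which exchanges ATP-magnesium for phosphate across the inner mitochondrial membrane, had 127 in knockout and 42 in wild-type cells, 3.02-fold, with an interval of 2.22 to 4.16. All 3 stayed past 2-fold relative to their chromosome, Slc27a1 at 1.10 and Slc25a24 at 1.04 on the log2 scale.

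Slc2a13, the proton-coupled myo-inositol carrier, had a signal of 162 in Rela knockout and 61 in wild-type cells, 2.66-fold, with an interval of 2.04 to 3.47. It was the 1 called gene of 7 sugar carriers (14.3%, against 11.1% of all genes higher), whose median log2 ratio was 0.42. Slc2a1, the common glucose carrier, had 90 in knockout and 67 in wild-type cells. Slc30a4, a zinc exporter, had 84 in knockout and 40 in wild-type cells, and Slc4a3, a chloride/bicarbonate exchanger, had 63 in knockout and 28 in wild-type cells. Slc25a39, needed for glutathione import into mitochondria, had 58 in knockout and 25 in wild-type cells. Slc12a4, a potassium-chloride cotransporter, had 84 in knockout and 38 in wild-type cells, and Slc10a7 of the bile acid family had 15 in knockout and 5 in wild-type cells. The last higher gene, Slc16a10, a carrier of aromatic amino acids, had 15 in knockout and 7 in wild-type cells. Of these, Slc25a39, Slc12a4 and Slc10a7 fell inside 2-fold relative to their chromosome.

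Family Slc35, classed as nucleotide sugar carriers, had 12 genes with a promoter region. Of these 3 were lower (25%, against 11.2% of all genes) and 0 higher (against 11.1%), with a median log2 ratio of -0.24. The class follows the family, and none of the 3 lower members is known here for carrying a nucleotide sugar. Slc35e3, an orphan carrier, had a signal of 8 in Rela knockout and 37 in wild-type cells, 4.63-fold lower, with an interval of 2.22 to 11. Slc35f6, also an orphan, had 11 in knockout and 48 in wild-type cells, 4.36-fold lower, with an interval of 2.33 to 8.96. Both have a mean below the median region. Slc35b3, which brings the sulfate donor PAPS into the Golgi apparatus, had 25 in knockout and 78 in wild-type cells, 3.12-fold lower, with an interval of 2.03 to 4.96.

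Slc35b3 lies on chromosome 13, with a median of -0.79 over 1290 regions, and stood at -0.82 relative to it, inside 2-fold. Slc35e3, on chromosome 10 with a median of -0.58, stayed lower at -1.50, and Slc35f6 at -1.96. Some nucleotide sugar carriers had near-even values: Slc35a1 had 87 in Rela knockout and 87 in wild-type cells, and Slc35a2, which carries UDP-galactose, had 56 in knockout and 54 in wild-type cells. Slc35d1, which carries UDP-glucuronic acid, has 2 promoter regions of opposite direction. The region 979 bp from the start had 9 in knockout and 55 in wild-type cells, 6.11-fold lower, with an interval of 3.11 to 13.5. The region 207 bp from the start had 18 in knockout and 9 in wild-type cells, with an interval of 0.939 to 4.39, and the gene's mean log2 ratio was -0.78.

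Among the metal carriers 2 of 12 were lower (16.7%, against 11.2% of all genes) and 1 was higher (8.33%, against 11.1%), with a median log2 ratio of 0.00. Slc41a3, a magnesium carrier, had a signal of 39 in Rela knockout and 89 in wild-type cells, 2.28-fold lower, with an interval of 1.60 to 3.32. Slc39a7, which releases zinc from the endoplasmic reticulum, had 34 in knockout and 73 in wild-type cells, 2.15-fold lower. A start of Rxrb lies within 500 bp of the Slc39a7 region, and 17 of the 114 Slc regions of the Rela pair have another gene's start that near. Zinc carriers thus stood on both sides, Slc30a4 higher and Slc39a7 lower, and the plasma membrane exporter Slc30a1 had 94 in knockout and 75 in wild-type cells.

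Of 28 mitochondrial carriers 2 were higher, Slc25a24 and Slc25a39 (7.14%, against 11.1% of all genes). Another 3 were lower (10.7%, against 11.2%, so near the share of all genes), and the median log2 ratio was 0.14. Slc25a18, a glutamate carrier, had 8 in Rela knockout and 25 in wild-type cells, 3.13-fold lower, with an interval of 1.45 to 7.59. Slc25a12, the aspartate/glutamate carrier, had 27 in knockout and 55 in wild-type cells, and Slc25a5, an ADP/ATP carrier, had 9 in knockout and 19 in wild-type cells. The other lower genes included Slc8b1, the mitochondrial sodium/calcium exchanger, with 18 in knockout and 38 in wild-type cells, and Slc16a7, a monocarboxylate carrier, with 7 in knockout and 16 in wild-type cells. Slc13a4, a sulfate carrier, had 0 in knockout and 5 in wild-type cells, and the interval of its lower fold runs from 1.1 with no upper limit. Set against a floor of 3 counts per library the fold is 1.76, and both values are close to that floor. Relative to their chromosome, Slc39a7, Slc25a12, Slc8b1, Slc16a7 and Slc6a15 were inside 2-fold, while Slc41a3, Slc25a18, Slc25a5 and Slc13a4 were not.

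Sulfate was also the substrate of the other gene with promoter regions of opposite direction. At Slc26a2 the region 42 bp from the start had 9 in Rela knockout and 18 in wild-type cells, while the region 965 bp away had 34 in knockout and 9 in wild-type cells, 3.78-fold, with an interval of 1.96 to 7.73. The phosphate carriers Slc20a1 and Slc20a2 stayed within 2-fold, with 47 and 66 in knockout cells and 62 and 96 in wild-type cells, but relative to its chromosome, 8, Slc20a2 was lower at -1.15.

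**Figure D2:**
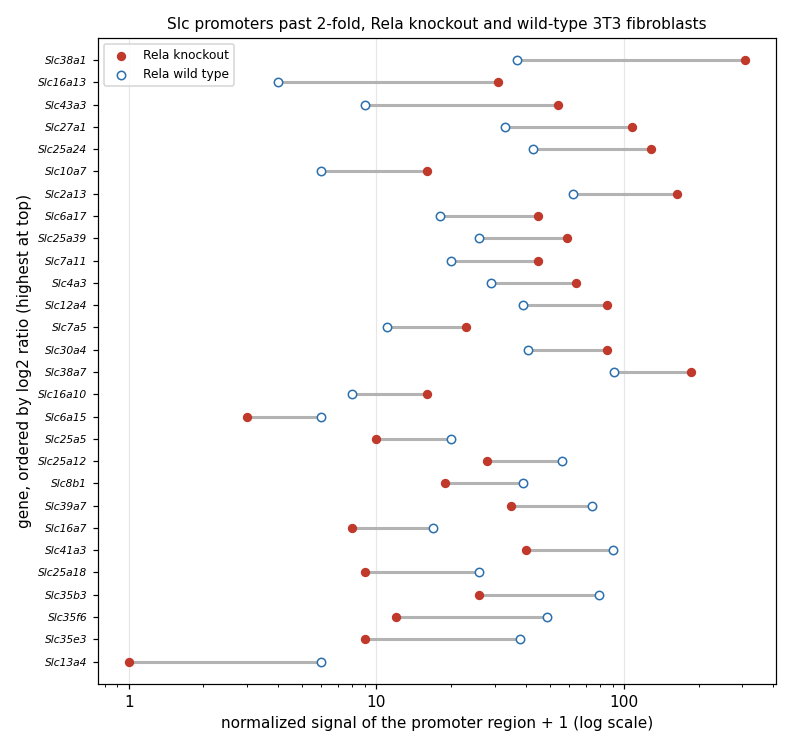
Normalized signal plus 1 (log axis) of 28 of the 29 Slc genes at least 2-fold higher or lower, in Rela knockout (filled) and wild-type (open) 3T3 cells, 1 value per genotype. Slc38a1 has 306 in knockout and 36 in wild-type cells, and Slc35e3 has 8 in knockout and 37 in wild-type cells.

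**Figure D3:**
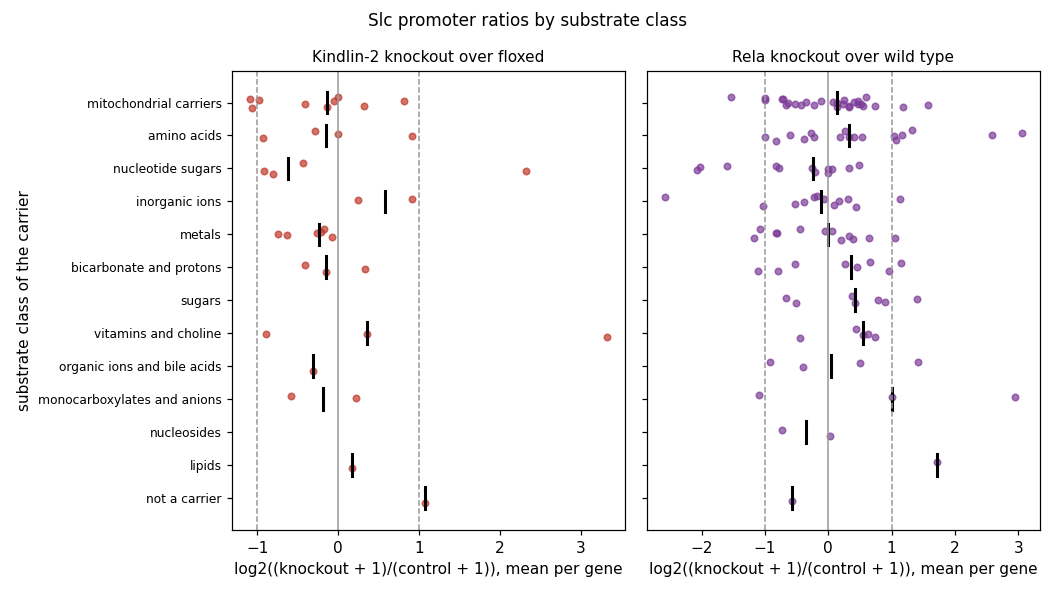
Mean log2 ratio of each Slc gene (points) by substrate class, Kindlin-2 knockout over floxed on the left and Rela knockout over wild type on the right; black bars are class medians and dashed lines mark 2-fold. In the Rela pair the amino acid class has a median of 0.33 and the nucleotide sugar class, which is family Slc35, one of -0.24. Classes follow families, and some members carry another substrate.

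Ratios differed between chromosomes in the Rela pair. The 11 Slc genes on chromosome 8 had a median log2 ratio of 0.54 with 5 higher, against a median of 0.61 over all 429 genes with a promoter region there. The 5 on chromosome 3 had a median of 1.17 with 3 higher, against 0.54 over all 340 genes. Thus 8 of the 16 higher genes lie on these chromosomes. On chromosome 10, where the median over all 342 genes was -0.57, 3 of 7 Slc genes were lower and 1, Slc16a10, was higher. On chromosome 6, where the median over all regions was -0.17, 3 of 6 Slc genes were lower. The share of all genes called on each chromosome was not counted, so these counts are not a result about the Slc genes. With each chromosome's median set to 0, 10 Slc genes were higher and 9 lower, and 16 of the 29 called genes were called again. The 3 genes gained were Slc20a2, the carnitine carrier gene Slc22a5, at -1.11 with 35 in Rela knockout and 67 in wild-type cells, and the sodium bicarbonate cotransporter gene Slc4a4, at 1.04 with 40 in knockout and 20 in wild-type cells.

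**Figure D4:**
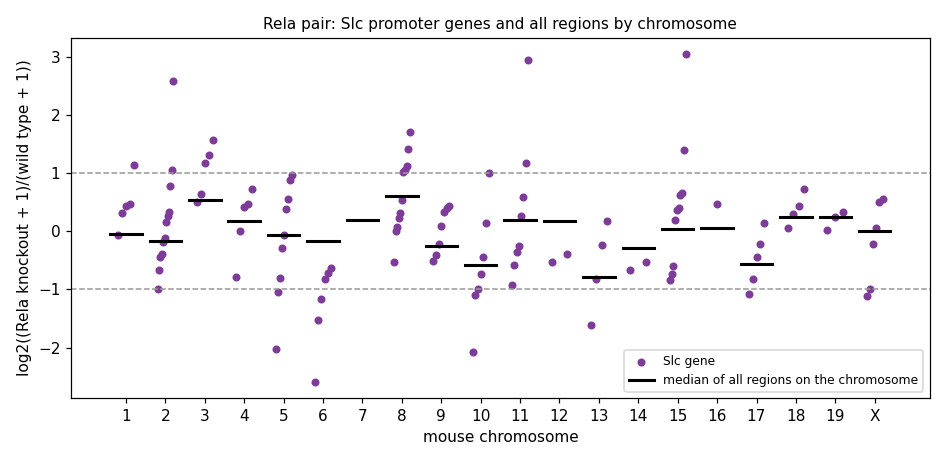
Mean log2 ratio, Rela knockout over wild type, of each of the 112 Slc genes by chromosome (points), with the median of all regions on the chromosome (bars) and dashed lines at 2-fold. The bars of chromosomes 8 and 3 stand at 0.61 and 0.53, those of chromosomes 13 and 10 at -0.79 and -0.58.

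The comparisons share no samples, so the 33 Slc genes with a promoter region in both tables could be set side by side. For 32 of them the regions of the pairs overlap. The exception is Slc6a17, whose region lies 96 bp from the start in the Kindlin-2 pair and 1829 bp from it in the Rela pair. None was past 2-fold in the same direction in both, and none in opposite directions, against 1.6% of 2131 shared genes past 2-fold the same way. Both log2 ratios lay on the same side of 0 for 9 genes, on opposite sides for 20, and 4 had a ratio of 0. The shares of all shared genes on opposite sides of 0, or past 2-fold in opposite directions, were not counted. Over all genes the Kindlin-2 pair had 901 ratios above 0 and 1361 below, and the Rela pair 3144 above and 3345 below. The split of 9 and 20 is therefore not a result about the Slc genes. Across these genes Pearson's r was -0.14 and Spearman's rho was -0.18, against 0.001 and 0.012 over all 2131 shared genes, where genes are not independent replicates.

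The shared genes called in one pair were within 2-fold in the other. Slc25a42 had 202 in Rela knockout and 191 in Rela wild-type cells, and Slc25a4 had 108 in knockout and 92 in wild-type cells. Slc27a1 and Slc25a24, higher in Rela knockout cells, had log2 ratios of 0.17 and 0.00 in the Kindlin-2 pair. Slc41a3, lower in Rela knockout cells, had -0.21 there. That a gene was called in 1 pair only does not show that the pairs differ, and their difference was not tested.

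**Figure D5:**
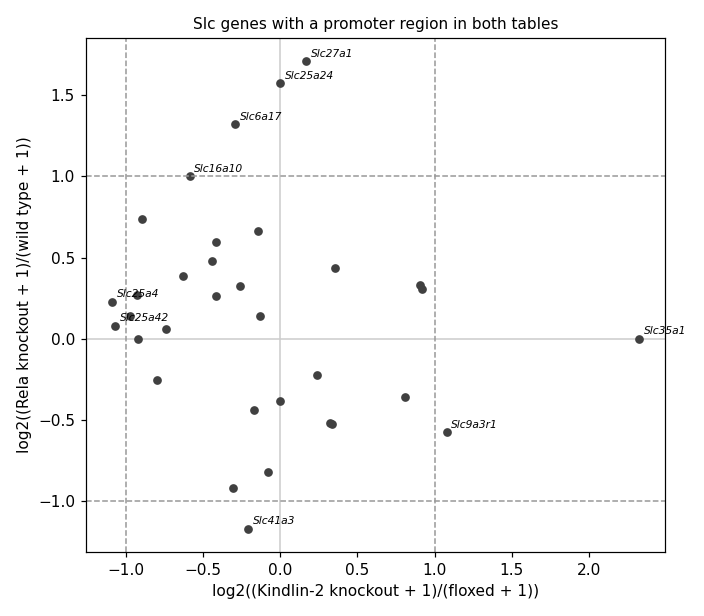
Log2 ratio in the Kindlin-2 pair (x axis, knockout over floxed) against that in the Rela pair (y axis, knockout over wild type) for the 33 Slc genes in both tables, with dashed lines at 2-fold. No gene lies past 2-fold in both, and the named genes are past it in 1 pair.

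Counts for other genes, grouped by symbol, were as follows. Beside them stand the shares of all genes with a promoter region. These were 11.1% higher and 11.2% lower in the Rela pair, and 8.3% higher and 10.9% lower in the Kindlin-2 pair. In Rela knockout 3T3 cells 1 of 15 genes with an Abc symbol was higher than in wild-type cells and 0 were lower, with a median log2 ratio of -0.05. The higher gene, Abce1, had 111 in knockout and 44 in wild-type cells, and stood at 0.70 relative to its chromosome, 8. The list follows the symbol and includes genes, Abce1 among them, that need not be transporters. Of 13 ATPase pump genes 1 was higher and 0 were lower, with a median of 0.17. Of 23 other transporters named outside the Slc scheme 1 was higher, Slco5a1, with 89 in Rela knockout and 3 in wild-type cells, and 1 was lower, Mtch2, with 14 in knockout and 39 in wild-type cells; their median was -0.06. Of 4 listed partners of carriers 1 was lower and 0 were higher, with a median of -0.44. The lower gene was Bsg, a chaperone of monocarboxylate carriers, with 20 in Rela knockout and 44 in wild-type cells. In Kindlin-2 knockout fibroblasts 1 of 5 genes with an Abc symbol was higher and 0 lower, and 1 of 8 ATPase genes was lower, Atp8a1, with 5 in knockout and 29 in floxed cells. Of 11 other transporters in that pair Nipal1 was higher, with 10 in knockout and 1 in floxed cells, the floxed value being below the floor. Another 2 were lower. These were Mpc1, a subunit of the mitochondrial pyruvate carrier, with 12 in knockout and 30 in floxed cells, and Mfsd5, with 9 in knockout and 20 in floxed cells. Zinc finger genes, a large list with no link to transport, had 19 higher and 23 lower of 176 in the Rela pair, and 6 higher and 6 lower of 62 in the Kindlin-2 pair.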

How the data were processed

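ATAC-seq was measured in mouse fibroblasts of 4 genotypes. Per the submitters' processing notes, which give no roles, the tools were STAR 2.4.2a, Trimmomatic 0.33, MACS2, Picard 1.136, bedtools, deepTools, FastQC and DESeq2, with build mm10. Read shifting for Tn5, duplicate removal and region calling, any of which can change a region's signal, are not described in the labels. The authors deposited 1 table per knockout. Its values are a score, namely signal after background correction and DESeq normalization of that table, in whole numbers, per the labels' name of the table. These are not counts, so levels of the 2 tables were not compared and, with 1 column per genotype, the planned fits were replaced by descriptions.

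Regions entered with a mean of both columns of at least 1, and the log2 ratio used a pseudocount of 1, which understates changes of weak regions. A gene's value is the mean over its regions with a centre within 2500 bp of the start, and calls need 2-fold. Distances and gene names are the tables' own. Scale factors inferred from the whole values were 1.36 for Kindlin-2 floxed, 0.949 for Rela knockout and 0.683 for Rela wild type. The way of inferring them was first tested on simulated single libraries with known factors, drawn from the Rela signals only. Merged replicates and the Kindlin-2 signals were not simulated. For Kindlin-2 knockout the best factor explained only 32.4% of the deviance, and 1 was used. If columns blend replicates, depth is unknown and the exact (Clopper-Pearson) 95% intervals are too narrow. Substrate classes were assigned by family from general knowledge.

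The members and lists were chosen with earlier results of these data known. Named genes are the 12 highest and 12 lowest Slc genes with a mean signal at or above the table's median region, those past 2-fold in both tables and a list of well-known carriers; others past 2-fold are said to be below that median or were chosen after their values were seen, and 1 lower gene of the Rela pair is counted but not reported here. Python 3.11.15 with numpy 2.4.6, pandas 2.3.3, scipy 1.17.1 and statsmodels 0.14.6 was used. Alternatives changed the pseudocount, the filter, the distance, the summary per gene and the scaling.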

Additional observations from a re-analysis of the deposited data

How the results depend on the processing

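Each comparison was recomputed under 12 alternatives. In the Kindlin-2 pair, where the main counts were 3 higher and 2 lower, a pseudocount of 5 left 1 lower gene, setting the promoter median to 0 (which shifts the median of all genes by 0.17) gave 5 higher and 0 lower, and quantile or loess scaling left 1 higher gene each. The higher genes thus made up 60% of the Slc calls as reported, 100% with the promoter median at 0, 33.3% after quantile and 25% after loess scaling. Over all genes these shares were 43.3%, 62.3%, 29.2% and 27.1%, so the share of higher calls moved the same way in the whole table. In the Rela pair the main counts were 16 higher and 13 lower of 112. A pseudocount of 5 left 8 lower genes, against 8.7% of all genes. A limit of 500 bp left 8 higher genes of 90 (without Slc38a1 and Slc27a1, among others), against 10.1% of all genes. Setting chromosome medians to 0 left 10 higher genes of 112, against 9.28% of all genes. The strongest region of a gene, used alone, called Slc35d1 lower and Slc26a2 higher as well. The count of genes past 2-fold the same way in both tables was 0 under every one of the 12. No named gene past 2-fold changed direction under these alternatives, although 16 single-gene values of the Rela pair, 12 of them with chromosome medians at 0, moved beyond their counting interval. No paired analysis was possible because each table has 1 column per genotype, and for the same reason no replicate could be left out. The Kindlin-2 columns are shallow, and most of their Slc ratios have counting intervals that include 1.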

Other observations

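Some Slc genes had regions beyond 2500 bp from the start, outside the counts above. In the Kindlin-2 table there were 2, at Slc34a2, a phosphate carrier, with 23 in Kindlin-2 knockout and 33 in floxed cells, and at Slc6a18, an amino acid carrier, with 22 in knockout and 20 in floxed cells. In the Rela pair there were 17 with a mean signal of at least 1, of which 3 were past 2-fold higher and 4 lower, against 221 (higher) and 251 (lower) of the 1161 such regions of all named genes. The region 5000 bp from the start of Slc5a9, a sodium-coupled sugar carrier with no promoter region, had 113 in Rela knockout and 12 in wild-type cells, 9.42-fold, with an interval of 5.68 to 16.5. The one 3039 bp from the glucose carrier gene Slc2a3 had 41 in knockout and 11 in wild-type cells, 3.73-fold, with an interval of 2.06 to 7.07. The region 2891 bp from the urea carrier gene Slc14a1 had 13 in knockout and 100 in wild-type cells, 7.69-fold lower, with an interval of 4.42 to 14.5.

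Just beyond the limit stood the region 2635 bp from the nucleoside carrier gene Slc29a1, with 52 in Rela knockout and 134 in wild-type cells, and the one 2675 bp from the heme carrier gene Slc48a1, with 20 in knockout and 63 in wild-type cells. The Slc48a1 promoter region itself had 54 in knockout and 47 in wild-type cells. Just inside the limit, the region 2284 bp from the creatine carrier gene Slc6a8 had 17 in knockout and 20 in wild-type cells, and that of Slc30a4 lay 2027 bp from the start. These regions were chosen after their values were seen, and a region may belong to another gene nearby.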
